A study of Homo sapiens with 13 samples.

Results

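Romidepsin was compared with F5446 in HuT78 cells, a line derived from the blood of a patient with Sézary syndrome, the leukaemic form of cutaneous T cell lymphoma. Of the 13 RNA sequencing libraries of the series, 7 belong to this comparison. They were chosen by their titles: 4 libraries from cells given 1 µM romidepsin (replicates 1 to 4) and 3 from cells given 10 nM F5446 (replicates 2 to 4), both for 72 h. The doses are not matched, so the contrast sets these treatments beside each other and does not rank the compounds at equal exposure. The treatment field of the 3 F5446 libraries differs in its last digit from one library to the next, whereas all 3 titles read F5446, and the titles were followed. The vehicle DMSO (replicates 1 and 4) and 10 nM chaetocin (replicates 1 to 4) also ran for 72 h in the same line. Chaetocin is an inhibitor of SUV39H1-type enzymes. These libraries entered the fit and helped to set the gene filter, the scaling, the spread and the term for replicate numbers described below. Through these they can shift the fitted difference between romidepsin and F5446. DMSO also served to place each treatment against vehicle. HuT78 is a single line, so the replicates are not donors, and nothing in the labels says whether they were separate cultures.

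Romidepsin inhibits class I histone deacetylases (HDACs), the enzymes that take acetyl groups off histone tails. In cells where it acts, acetylation accumulates, and the gene CDKN1A, which encodes the cyclin-dependent kinase inhibitor p21, is a common transcriptional readout. The drug is used to treat cutaneous T cell lymphoma and is carried out of cells by the efflux pump ABCB1. F5446, known by a code name, is described as inhibiting SUV39H1, which places methyl groups on lysine 9 of histone H3, a mark of silent chromatin. Both compounds therefore aim at enzymes of repressive chromatin, and the contrast asks which transcripts part the 2 treated states.

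The 7 libraries held 19901052 to 30494499 counts. Levels are given as CPM, counts scaled to a common library size after TMM normalization. Means are given ± SD over n = 4 romidepsin and n = 3 F5446 libraries. A log2 difference is romidepsin minus F5446 as fitted with the term for replicate sets described below. It can therefore differ from the log2 ratio of the mean CPM shown beside it, as in ALDOC and PNRC1. T cell identity held: CD3E, a chain of the T cell receptor complex, was at 197 to 267 CPM with romidepsin and 212 to 263 with F5446, CD4 at 184 to 260.0 and 201 to 269, and the Sézary cell receptor gene KIR3DL2 at 255 to 309 and 226 to 269.7. LAT, an adaptor of the same pathway, is listed at 0 in all 7 libraries. The libraries also differed by replicate number: 2719 of 17252 tested genes (15.8%) passed adjustment between replicates 3 and 4 and replicates 1 and 2. The fit therefore carries a term for these 2 sets, and values within each set are given for many of the genes and lists. Of 42 gene lists with at least 3 tested members, the median had opposite signs in the 2 sets in 20, and it took both signs when single libraries were left out in 21. The labels do not say what the numbers stand for, and replicates 1 and 2 hold 1 F5446 library. In bulk RNA, fewer cells of a kind and less RNA per cell cannot be told apart.

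No gene of the 17252 tested passed an adjusted p of 0.05 between romidepsin and F5446 by edgeR's quasi-likelihood test (0% called). At an unadjusted p under 0.05 there were 663 genes (3.84%), against the 863 that this threshold gives where no gene differs, with 364 higher (2.11%) and 299 lower (1.73%) with romidepsin. That split depended on scaling: with upper-quartile scaling it was 525 higher and 196 lower. On the same libraries DESeq2 called 7 genes, limma-voom 2, and edgeR with each replicate number as a block 2. Without chaetocin replicate 3, which stood apart from the other 12 libraries on the first principal component, edgeR called 7 genes, among them CKB, CAPN6 and ADGRL1 higher and TNFRSF4, AC060766.1 and MIR3687-2 lower with romidepsin. Across all tested genes the median log2 difference was -0.01, and of 10108 genes at a mean of 5 CPM or more only 9 differed by more than 1 on the log2 scale. In 804 genes (4.66%) the 2 groups of libraries did not overlap, 441 with romidepsin higher (2.56%) and 363 lower (2.1%). If all 35 splits of 4 against 3 libraries were equally likely, a gene would show no overlap with a probability of 0.0571. Genes without overlap were therefore no more frequent than under that assumption.

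**Figure D1:**
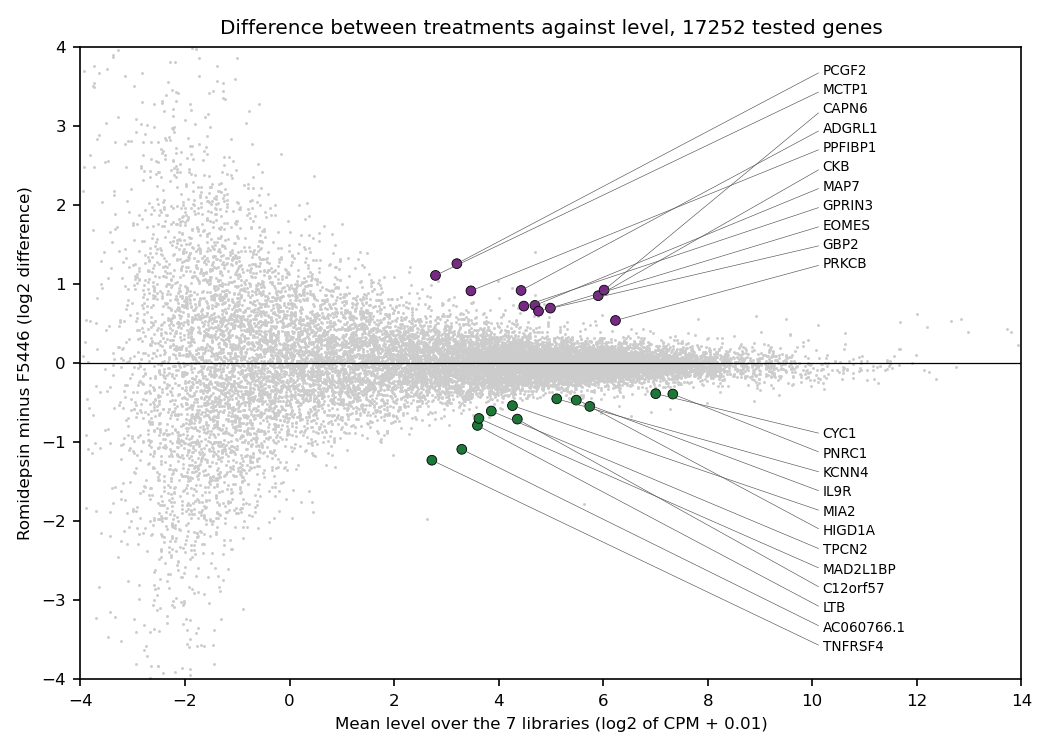
Log2 difference (romidepsin minus F5446) of each of the 17252 tested genes against its mean level over the 7 libraries (log2 of CPM + 0.01); 218 genes lie outside the axes. Coloured points are from the 12 higher and 12 lower genes of 5 CPM or more with the smallest p, which sit at the rim of a narrow band; none passed adjustment, and scatter widens at low level.

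Several genes shared the smallest adjusted p, 0.0865 by edgeR: among them CKB, CAPN6 and ADGRL1 were higher with romidepsin and TNFRSF4 was lower. CKB encodes the brain-type creatine kinase, which shuttles phosphate between ATP and creatine. It stood at 63.3, 74.7, 76.1 and 81.1 CPM in romidepsin replicates 1 to 4 and 40.9, 52.1 and 31.3 in F5446 replicates 2 to 4. Every romidepsin library was above every F5446 library, at 73.8 ± 7.55 CPM with romidepsin and 41.4 ± 10.4 with F5446, a log2 difference of 0.85 (95% interval 0.53 to 1.17) or 1.81-fold. DMSO libraries averaged 33.0 CPM. With replicate number as a block, the difference was 0.90 and CKB passed adjustment (adjusted p = 0.010).

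CAPN6 encodes a calpain family protein without the usual protease activity that binds microtubules. It was at 70.5, 81.5, 77.5 and 94.4 CPM in romidepsin replicates 1 to 4 and 46.6, 41.8 and 41.1 in F5446 replicates 2 to 4. The romidepsin libraries lay well clear of the F5446 libraries, which in turn lay close to the DMSO libraries at 42.3 and 38.6 CPM. The log2 difference was 0.92 (95% interval 0.57 to 1.27), and it was 0.71 in replicates 1 and 2 and 1.05 in 3 and 4. With the block CAPN6 passed adjustment at a log2 difference of 1.00 (adjusted p = 0.0133). CKB and CAPN6 were each called in 10 of the 29 alternative settings, and the sign held in all 29. The sign held in all 29 also for other genes chosen by small p, such as PCGF2 and TNFRSF4. The settings refit largely the libraries in which the genes were chosen, so a constant sign adds no support.

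The 250 bases before the start of each of these 2 genes are shown because both genes lead the comparison in the same direction. They come from RefSeq on GRCh38.p14 (the counts were made on hg19 per the submitters' processing notes) and are written 5′ to 3′ on the gene's strand, with each GC box (GGGCGG, or CCGCCC on the other strand) in capitals; of CKB, CAPN6, ADGRL1 and TNFRSF4, 2 of 4 were matched in that table. The CKB window is chr14:103522831-103523080, minus strand, and the CAPN6 window chrX:111270484-111270733, minus strand.
CKB: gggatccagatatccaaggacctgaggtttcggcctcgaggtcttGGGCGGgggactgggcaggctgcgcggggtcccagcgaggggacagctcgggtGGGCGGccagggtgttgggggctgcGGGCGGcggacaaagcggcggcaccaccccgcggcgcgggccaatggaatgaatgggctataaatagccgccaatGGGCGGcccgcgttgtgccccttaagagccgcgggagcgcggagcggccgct
CAPN6: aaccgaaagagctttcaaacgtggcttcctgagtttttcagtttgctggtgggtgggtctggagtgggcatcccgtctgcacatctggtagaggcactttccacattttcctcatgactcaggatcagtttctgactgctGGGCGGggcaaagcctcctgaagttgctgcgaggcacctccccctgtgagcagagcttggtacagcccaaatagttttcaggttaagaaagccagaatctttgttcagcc
The CKB window holds 4 GC boxes, 2 CCAAT boxes (CCAAT or ATTGG) and 1 TATA box (TATAAA or TTTATA), with a GC content of 70.8% and 27 CpG. The CAPN6 window holds 1 GC box and neither of the other motifs, with 52.0% GC and 5 CpG. Of 35116 promoters of the same length, 42.6% hold a GC box, 32% a CCAAT box and 10.7% a TATA box, and the median GC content is 58%. A match describes the letters and not a bound site.

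ADGRL1, an adhesion G protein-coupled receptor also named latrophilin 1, was at 24.4, 30.8, 24.9 and 25.8 CPM in romidepsin replicates 1 to 4 and 11, 17.5 and 16.4 in F5446 replicates 2 to 4. All 4 romidepsin libraries exceeded the 3 F5446 libraries, and the log2 difference of 0.92 (95% interval 0.54 to 1.30) was 1.33 in replicates 1 and 2 and 0.58 in 3 and 4.

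TNFRSF4 encodes OX40, a costimulatory receptor of activated T cells. It was at 3.27, 2.30, 6.06 and 5.01 CPM in romidepsin replicates 1 to 4 and 10.4, 10.6 and 8.56 in F5446 replicates 2 to 4. Each romidepsin library lay under each F5446 library, at 4.16 ± 1.69 CPM with romidepsin and 9.83 ± 1.10 with F5446, a log2 difference of -1.23 (95% interval -1.74 to -0.72). The DMSO mean of 7.89 CPM lay between the 2 treated means. The difference was -1.89 in replicates 1 and 2 and -0.79 in 3 and 4 (unadjusted p of the difference between sets 0.0315, which failed adjustment).

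**Figure D2:**
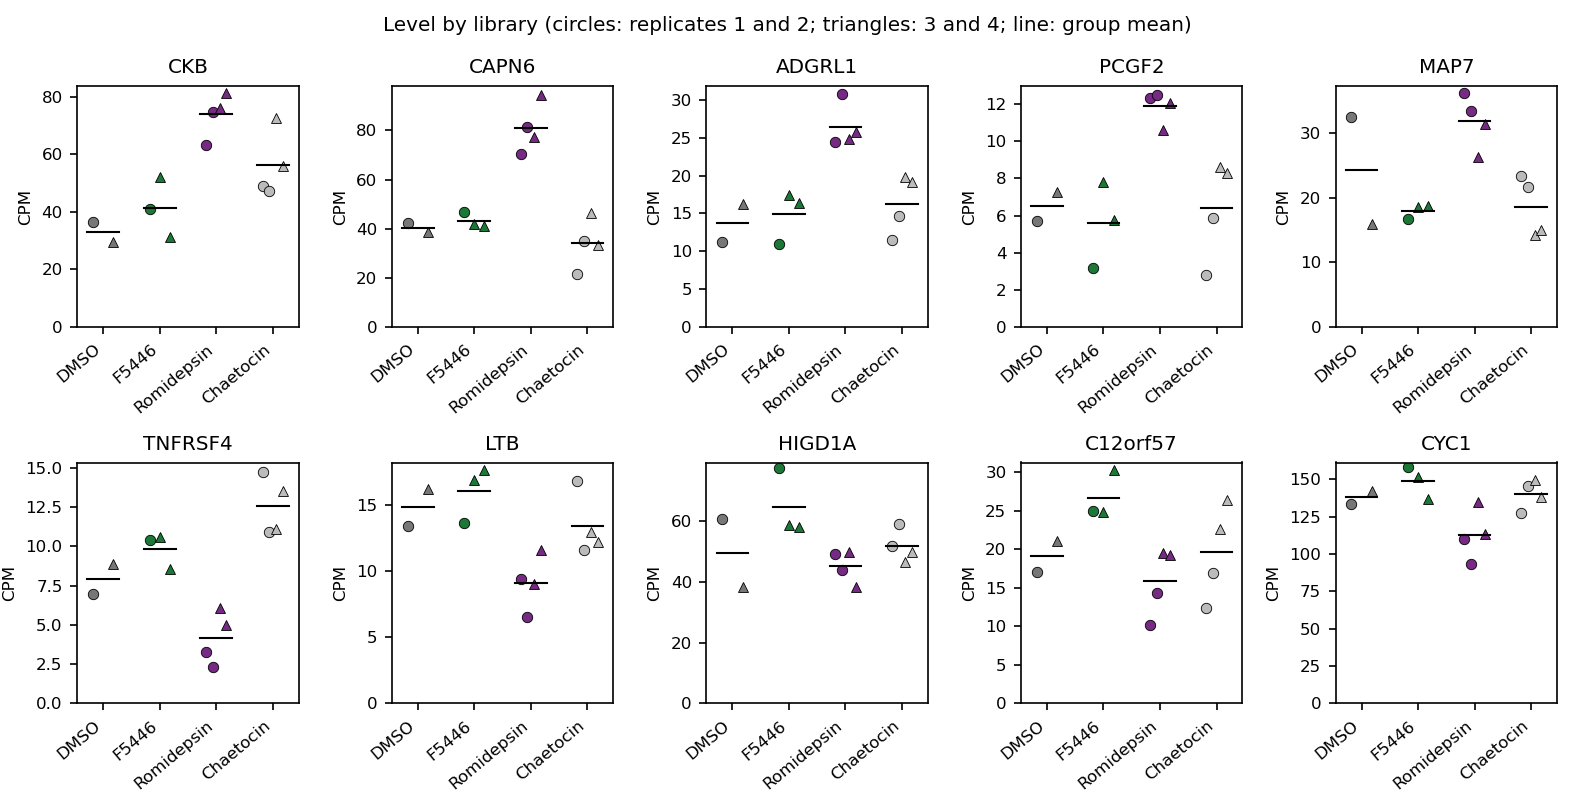
CPM (vertical axis, from 0) in each library for 5 genes higher and 5 lower with romidepsin than with F5446; circles are replicates 1 and 2, triangles 3 and 4, lines group means. In the upper row (CKB, CAPN6, ADGRL1, PCGF2 and MAP7) the 4 romidepsin points lie above all F5446 points, and in the lower row they lie below.

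The higher genes that came next by p were PCGF2, MAP7, GBP2, PRKCB, EOMES, MCTP1, PPFIBP1 and GPRIN3, at adjusted p of 0.289 to 0.428 by edgeR. PCGF2, a ring finger subunit of Polycomb repressive complexes, was at 12.4, 12.5, 10.6 and 12.1 CPM in romidepsin replicates 1 to 4 and 3.20, 7.79 and 5.79 in F5446 replicates 2 to 4. The romidepsin libraries lay close together and the F5446 libraries were lower and scattered, with a log2 difference of 1.26, which was 1.96 in replicates 1 and 2 and 0.73 in 3 and 4. PRKCB, the protein kinase C beta of lymphocyte receptor signalling, was at 80.9, 81.4, 95.9 and 86.9 CPM in romidepsin replicates 1 to 4 and 60.4, 65.2 and 56.8 in F5446 replicates 2 to 4. These groups were well apart, at a log2 difference of 0.54 (95% interval 0.27 to 0.81). EOMES, a T-box transcription factor of memory and cytotoxic T cells, was at 49.3, 42.6, 22.5 and 39.9 CPM in romidepsin replicates 1 to 4 and 36.1, 17.9 and 14.3 in F5446 replicates 2 to 4. Its groups overlapped through F5446 replicate 2 and romidepsin replicate 3, so the log2 difference of 0.70 was 0.35 in replicates 1 and 2 and 0.95 in 3 and 4.

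MAP7, a microtubule-associated protein that recruits kinesin, averaged 31.8 ± 4.16 CPM with romidepsin and 18 ± 1.07 with F5446, with no overlap (log2 0.73). MCTP1, a calcium-binding membrane protein, averaged 9.15 ± 2.51 CPM with romidepsin and 3.93 ± 1.61 with F5446 (log2 1.11). PPFIBP1, a liprin, averaged 14.1 ± 2.52 CPM with romidepsin and 7.05 ± 1.26 with F5446 (log2 0.91). In these 3 genes and in GPRIN3 (26.8 against 16.4 CPM, log2 0.72) the lowest romidepsin library was above the highest F5446 library. Of the 12 higher genes, 10 had no overlap; the genes were chosen by the size of p in this contrast, so that count adds no support.

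The lower genes after TNFRSF4 were led by AC060766.1, HIGD1A, C12orf57 and LTB (adjusted p 0.289 to 0.428 by edgeR). AC060766.1 is a transcribed processed pseudogene, whose reads may be shared with its parent gene, at 5.69, 5.35, 8.23 and 6.78 CPM in romidepsin replicates 1 to 4 and 11.3, 15.2 and 16.0 in F5446 replicates 2 to 4. HIGD1A, a small hypoxia-inducible protein of the inner mitochondrial membrane, was at 49.1, 43.8, 49.8 and 38.2 CPM in romidepsin replicates 1 to 4 and 77.4, 58.7 and 58.2 in F5446 replicates 2 to 4. LTB, the membrane-anchoring chain of lymphotoxin, was at 9.36, 6.499, 8.98 and 11.6 CPM in romidepsin replicates 1 to 4 and 13.6, 16.9 and 17.6 in F5446 replicates 2 to 4. In all 3 genes the romidepsin libraries lay below the F5446 libraries, at log2 differences of -1.09, -0.55 and -0.79. For LTB the difference was alike in the sets, -0.78 and -0.75. C12orf57 averaged 15.8 ± 4.44 CPM with romidepsin and 26.7 ± 3.07 with F5446 (log2 -0.71).

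The other lower genes had adjusted p of 0.720 or more. CYC1, the cytochrome c1 subunit of respiratory complex III, was at 109.9, 93.7, 135 and 114 CPM in romidepsin replicates 1 to 4 and 158, 152 and 137 in F5446 replicates 2 to 4. The groups were just apart, at a log2 difference of -0.39 (95% interval -0.61 to -0.16). IL9R, the receptor chain of the T cell growth factor interleukin 9, was at 37.0, 35.2, 42.5 and 38.8 CPM in romidepsin replicates 1 to 4 and 52.8, 55.9 and 51.3 in F5446 replicates 2 to 4, also without overlap (log2 -0.47). MAD2L1BP, which counters the spindle checkpoint protein MAD2, TPCN2, a cation channel of lysosomes, and MIA2, of endoplasmic reticulum export, were lower without overlap at log2 differences of -0.70, -0.61 and -0.54. KCNN4, the calcium-activated potassium channel of T cells (29.2 against 41.7 CPM), and PNRC1, a nuclear receptor coactivator (129 against 204 CPM), overlapped. In PNRC1 libraries numbered 1 and 2 were all under 100 CPM and those numbered 3 and 4 all above 150, in both groups.

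Of the 9 genes at 5 CPM or more with a log2 difference beyond 1, TNFRSF4, PCGF2, AC060766.1 and MCTP1 are described above. Another 4 were named after their values were seen. SLAMF7, a SLAM family receptor, was higher (log2 1.03, unadjusted p = 0.00122). The small RNA genes MIR3687-2 (-1.97) and MIR3648-2 (-1.78) were lower and SNORD3A (1.41) higher, with standard errors of 1.02, 1.21 and 1.45. MIR3687-2 had no overlap and was called lower with only the 7 libraries and without chaetocin replicate 3, while the groups overlapped for the other two, whose unadjusted p was 0.177 for MIR3648-2 and 0.358 for SNORD3A.

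The enzymes the drugs aim at differed little in transcript level. HDAC1, a class I deacetylase, was at 397, 403, 442 and 419 CPM in romidepsin replicates 1 to 4 and 375, 362 and 335 in F5446 replicates 2 to 4. Its groups did not overlap, and the romidepsin mean was higher by 0.21 on the log2 scale (95% interval 0.00 to 0.43, unadjusted p = 0.0519). HDAC2 (189.7 against 190.2 CPM), HDAC3 (55.2 against 51.7 CPM) and HDAC8 (9.91 against 10.196 CPM) overlapped, with log2 differences of 0.01, 0.11 and -0.14; intervals reached -0.56 and 0.36 at most. SUV39H1, the target named for F5446, was at 38.8, 34.4, 44.0 and 37.3 CPM in romidepsin replicates 1 to 4 and 35.7, 47.7 and 45.0 in F5446 replicates 2 to 4. Neither direction was clear, at a log2 difference of -0.12 (95% interval -0.40 to 0.17), nor for SUV39H2 at 0.11 (95% interval -0.19 to 0.42). Transcript level says nothing of enzyme activity, which was not measured here.

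The lists of chromatin machinery had medians near no difference. PCGF2, the Polycomb subunit described above with a log2 difference of 1.26, is not a member of these lists. Of all tested genes 48.6% had a fitted difference above 0 and 51.4% below. Of 18 tested HDACs and sirtuins 10 were higher and 8 lower with romidepsin (median 0.04), with HDAC1 the single member without overlap. Subunits of HDAC corepressor complexes (32 tested) were 16 higher and 16 lower, with a median of 0.00; MTA3 of the NuRD complex was higher at 26.8 against 20.8 CPM (log2 0.35, unadjusted p = 0.0405, no overlap). Acetyltransferases and bromodomain readers (18 tested, median -0.01) and the H3K9 methylation machinery (27 tested, median -0.01) had no member at an unadjusted p under 0.05; SETDB1 (60.6 against 72.7 CPM) and the heterochromatin protein gene CBX1 (143 against 129.9 CPM) had the smallest p. Genes of Polycomb repressive complex 2 and of DNA methylation (17 tested, median 0.01, 0.15 in replicates 1 and 2 and -0.03 in 3 and 4) had none either. The medians of the last 4 lists took either sign across scalings, and that of the HDACs and sirtuins was -0.03 without F5446 replicate 2.

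Genes commonly induced by HDAC inhibitors had a median near 0 between the treatments. Of 20 tested among 23 listed, 9 were higher and 11 lower with romidepsin, at a median of -0.02, against -0.01 over all genes; it was 0.17 in replicates 1 and 2 and -0.08 in 3 and 4 and took either sign across scalings and omitted libraries. Against DMSO the list's median was 0.02 with romidepsin and 0.05 with F5446, so it lay near vehicle with either treatment. Both values share the 2 DMSO libraries. CDKN1A was at 4.16, 3.0, 4.15 and 2.04 CPM in romidepsin replicates 1 to 4 and 0.370, 2.44 and 1.68 in F5446 replicates 2 to 4. The overlap was narrow, with romidepsin replicate 4 under F5446 replicate 3, and these are low counts. Its log2 difference was 1.40 (95% interval 0.32 to 2.48, unadjusted p = 0.0128), at 3.26 in replicates 1 and 2, where F5446 replicate 2 is the lone and lowest library, and 0.59 in 3 and 4. DMSO replicates 1 and 4 were at 1.49 and 3.19 CPM. Against them the fitted log2 difference of CDKN1A was 0.62 with romidepsin and -0.78 with F5446 (unadjusted p by edgeR 0.281 and 0.197). H1F0, the linker histone gene often induced by these drugs, was at 21.2 against 18.5 CPM with overlap. The lower member of smallest p was the metallothionein MT2A, a metal-binding protein that shares sequence with its relatives, at 45.5, 41.6, 57.3 and 42.1 CPM in romidepsin replicates 1 to 4 and 40.8, 94.9 and 112 in F5446 replicates 2 to 4. Only F5446 replicates 3 and 4 were high, so its log2 difference of -0.63 was 0.09 in replicates 1 and 2 and -1.05 in 3 and 4; in replicates 3 and 4 alone MT2A passed adjustment.

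ABCB1, the pump that exports romidepsin, was at 15.3, 18.4, 11.2 and 11 CPM in romidepsin replicates 1 to 4 and 10.9, 7.05 and 4.85 in F5446 replicates 2 to 4. No F5446 library reached the lowest romidepsin library, though F5446 replicate 2 came close to it; the log2 difference was 0.77 (95% interval 0.32 to 1.21, unadjusted p = 0.00148, adjusted p = 0.758). Against the DMSO mean of 12.7 CPM, the fitted log2 difference was 0.17 with romidepsin and -0.59 with F5446. The 10 tested efflux transporters as a list were 6 higher and 4 lower (median 0.03, 0.11 in replicates 1 and 2 and -0.10 in 3 and 4). ABCG2 was the other member without overlap, at 3.39 against 1.88 CPM, and ABCC1 did not differ in mean by more than its spread (208 against 210.2 CPM).

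Interferon-stimulated genes, which cells switch on when they sense interferon, were on both sides of 0. Of 46 tested, 27 were higher and 19 lower with romidepsin (median 0.06), and 7 higher and 2 lower members had an unadjusted p under 0.05, against 2.11% and 1.73% of all genes. The higher members included GBP2, OAS2, GBP1, RSAD2, OASL and CMPK2, and the lower were IFIH1 and IFITM1; none passed adjustment. GBP2, a GTPase of cell-autonomous defence, was at 40.7, 35.7, 28.3 and 25.8 CPM in romidepsin replicates 1 to 4 and 21.8, 22.2 and 15.6 in F5446 replicates 2 to 4. OAS2, which makes the RNase L activator, was at 102, 102, 96.2 and 93.7 CPM in romidepsin replicates 1 to 4 and 76.8, 74.0 and 80.2 in F5446 replicates 2 to 4. Both had every romidepsin library above every F5446 library, at log2 differences of 0.66 (95% interval 0.33 to 0.99) and 0.34 (95% interval 0.11 to 0.56).

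CMPK2, a mitochondrial nucleotide kinase, was at 82.4, 65.2, 28.3 and 22.3 CPM in romidepsin replicates 1 to 4 and 53.5, 20.7 and 23.3 in F5446 replicates 2 to 4. IFIH1, the RNA sensor MDA5, was lower at 19.5 against 28 CPM (log2 -0.44, with overlap), as was IFITM1, a membrane protein that limits virus entry, at 596 against 717 CPM (log2 -0.22). The median of the list kept its sign in every scaling and with each library left out, between 0.02 and 0.11.

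Class II antigen presentation genes were mostly higher with romidepsin: 13 of 16 tested members, at a median of 0.19, beside 48.6% of all genes. HLA-DPB1, a beta chain of class II molecules, was at 139.9, 116, 138 and 155 CPM in romidepsin replicates 1 to 4 and 118, 98.9 and 99.1 in F5446 replicates 2 to 4. The top F5446 library overlapped the bottom romidepsin library, and the log2 difference was 0.38 (95% interval 0.13 to 0.62, unadjusted p = 0.00389), with 0.12 in replicates 1 and 2 and 0.56 in 3 and 4. HLA-DPA1, its partner chain, was at 274 against 224 CPM (log2 0.30, unadjusted p = 0.00791). RFXAP, a subunit of the complex that binds class II promoters, was lower without overlap at 14.3 against 16.5 CPM (log2 -0.22, 95% interval -0.61 to 0.17). The class II median was 0.06 in replicates 1 and 2 and 0.26 in 3 and 4 and lay between 0.14 and 0.22 in the 27 other settings. Class I genes were 13 higher and 7 lower of 20 (median 0.05), with no member at an unadjusted p under 0.05. HLA genes share sequence, and how reads were split between them is not given in the sources used here.

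**Figure D3:**
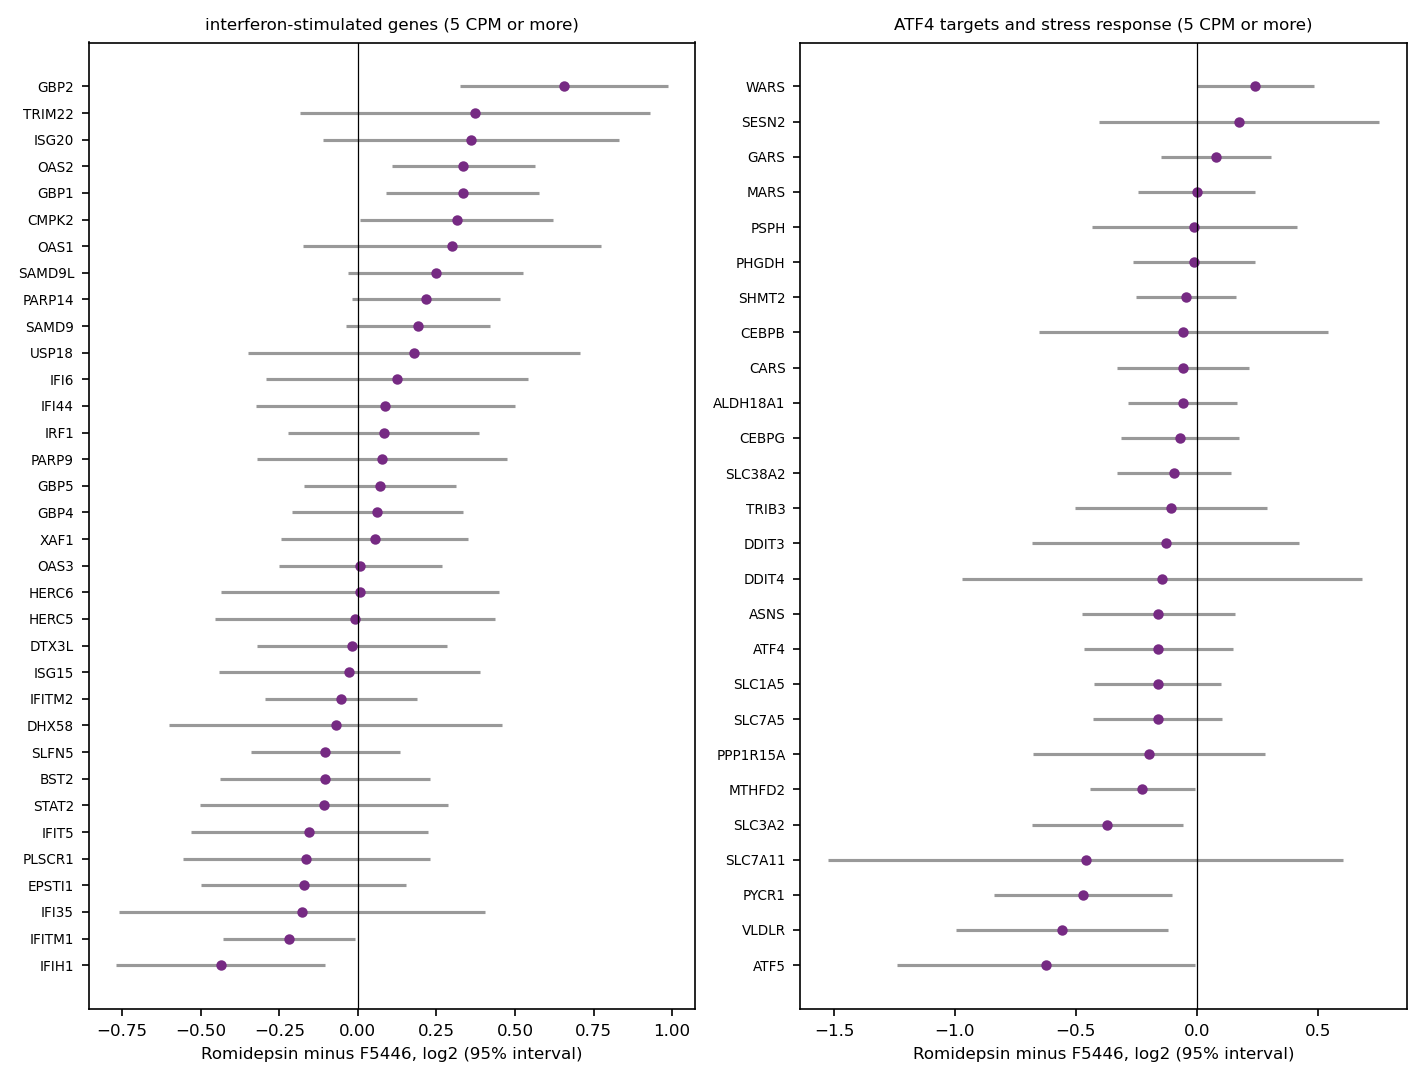
Log2 difference (romidepsin minus F5446) with its 95% interval for members at 5 CPM or more of the interferon-stimulated genes (left) and of the ATF4 targets (right). Interferon-stimulated genes spread from IFIH1 on the lower side to GBP2 on the higher side, while most ATF4 targets lie below 0 with intervals that cross it.

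Among cytotoxic effectors, GZMK and FASLG were higher at an unadjusted p under 0.05, and neither passed adjustment. GZMK, the granzyme of memory T cells, was at 20.1, 25, 28.3 and 24.7 CPM in romidepsin replicates 1 to 4 and 15.2, 16.4 and 14.9 in F5446 replicates 2 to 4. FASLG, the ligand of the death receptor FAS, was at 13, 12.7, 13.8 and 16.2 CPM in romidepsin replicates 1 to 4 and 10.4, 11.3 and 5.94 in F5446 replicates 2 to 4. Neither overlapped, at log2 differences of 0.69 (unadjusted p = 0.00561) and 0.58 (unadjusted p = 0.0301). NKG7, a cytotoxic granule protein, was lower without overlap at 48.4 against 56.3 CPM (log2 -0.20, 95% interval -0.49 to 0.08). Over the 14 tested cytotoxic effectors, 6 were higher and 8 lower, at a median of -0.04 whose sign did not hold: it was 0.08 in replicates 1 and 2 and 0.00 in 3 and 4, 0.02 with the replicate block and 0.02 without romidepsin replicate 4. FAS was at 96.6 against 122.8 CPM, a log2 difference of -0.31 (95% interval -0.62 to 0.00), which was -0.61 in replicates 1 and 2 and -0.11 in 3 and 4.

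T cell receptor genes (27 tested) were 15 higher and 12 lower (median 0.07). FYN, a proximal signalling kinase, was higher without overlap at 94.7 against 76.3 CPM (log2 0.31, unadjusted p = 0.00643), and TRAC, the receptor alpha constant gene, was lower with overlap at 212 against 273 CPM (log2 -0.26, unadjusted p = 0.0419). Sézary cell genes were 13 higher and 8 lower of 21, at a median of 0.05 that was 0.00 without romidepsin replicate 2 and 0.11 without F5446 replicate 2. STAT4, a transcription factor whose loss marks Sézary cells, was at 28.1, 23.1, 16.5 and 16.9 CPM in romidepsin replicates 1 to 4 and 15.9, 10.7 and 10.0 in F5446 replicates 2 to 4. The romidepsin libraries stayed just above the F5446 libraries, with a log2 difference of 0.67 in all libraries and 0.69 and 0.69 in the sets. GATA3, the lineage regulator of helper cells that HuT78 expresses strongly, was at 742 against 820.5 CPM (log2 -0.08, 95% interval -0.49 to 0.33).

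Checkpoint and costimulatory receptors (20 tested) were 13 higher and 7 lower, at a median of 0.17 that was -0.01 in replicates 1 and 2 and 0.29 in 3 and 4. The lower members at an unadjusted p under 0.05 were TNFRSF4, TNFRSF18 and PDCD1. TNFRSF18, also named GITR and a relative of OX40, was at 2.95, 3.30, 2.24 and 2.83 CPM in romidepsin replicates 1 to 4 and 3.91, 4.47 and 4.70 in F5446 replicates 2 to 4, with no overlap (log2 -0.67, unadjusted p = 0.0292). PDCD1, the inhibitory receptor PD-1, was under 1 CPM in all 7 libraries, too low for a fold. CD86, a ligand of CD28, was the higher member of smallest p at 12 against 7.52 CPM (log2 0.55, with overlap). Among 26 tested cytokine genes and receptors (median 0.04, 0.20 in replicates 1 and 2 and -0.01 in 3 and 4), IL7R, IL10 and TNFRSF1B were higher and LTB, IL9R, TNFRSF1A and IFNGR2 lower at an unadjusted p under 0.05. IL7R, the receptor chain of the survival cytokine interleukin 7, was at 32.5, 31, 27.9 and 23.5 CPM in romidepsin replicates 1 to 4 and 22.1, 19.2 and 19.8 in F5446 replicates 2 to 4, without overlap (log2 0.42). Homing receptors and integrins (22 tested) were 10 higher and 12 lower (median -0.04), with the selectin ligand gene SELPLG (127 against 106 CPM) among the higher.

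ATF4 targets, which cells raise when amino acids run short or the endoplasmic reticulum or mitochondria are stressed, were lower with romidepsin than with F5446 in 25 of 28 tested members, where 51.4% of all genes were. The median was -0.14, at -0.05 in replicates 1 and 2 and -0.13 in 3 and 4. In the other 27 settings it ranged from -0.20 without F5446 replicate 2 to -0.04 without F5446 replicate 3, so its size depended on single libraries. The list's median log2 level by library, relative to the mean of the 7, overlapped between the groups. It was -0.18 to 0.10 with romidepsin and -0.01 to 0.29 with F5446. PYCR1, VLDLR, SLC3A2, MTHFD2 and ATF5 had an unadjusted p under 0.05, and none passed adjustment. ATF5, a transcription factor of the mitochondrial stress response, was at 81.4, 115, 105 and 90.9 CPM in romidepsin replicates 1 to 4 and 141, 198 and 116 in F5446 replicates 2 to 4. PYCR1, an enzyme of proline synthesis, was at 15.3, 17.0, 24.7 and 17.0 CPM in romidepsin replicates 1 to 4 and 23.5, 32.7 and 23.2 in F5446 replicates 2 to 4. ATF5 had no overlap, with F5446 replicate 3 the highest, and PYCR1 overlapped through romidepsin replicate 3. Their log2 differences were -0.62 (95% interval -1.24 to -0.01) and -0.47 (95% interval -0.84 to -0.10). Against DMSO the list's median was 0.01 with romidepsin and 0.11 with F5446, comparisons that share the DMSO libraries.

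Medians of the chaperone lists were near 0. Endoplasmic reticulum chaperones were 10 higher and 11 lower of 21 (median 0.00), and heat shock chaperones 6 higher and 12 lower of 18 (median -0.03). Targets of NRF2 and thiol redox genes were 11 higher and 21 lower of 32 (median -0.07, between -0.10 and -0.03 in the 27 settings that span both sets). GPX1, GPX4 and FTL, which remove peroxides or store iron, were lower at an unadjusted p under 0.05; GPX4 was at 191, 173, 283 and 199 CPM in romidepsin replicates 1 to 4 and 261, 326 and 339 in F5446 replicates 2 to 4, with overlap. The 4 tested metallothioneins were all lower at a median of -0.54 (0.12 in replicates 1 and 2 and -0.90 in 3 and 4), further from 0 than the median of the ATF4 targets.

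Growth and energy genes gave list medians that depended on single libraries. Cytosolic ribosomal protein genes were lower in 64 of 77 tested members (median -0.15), beside 51.4% of all genes. Of these, 8 had an unadjusted p under 0.05, beside 1.73% of all genes that were lower at that threshold. They were led by RPS14 at 407 against 564 CPM (log2 -0.48, no overlap, adjusted p = 0.987 by edgeR). Nuclear-encoded subunits of oxidative phosphorylation were lower in 59 of 74 (median -0.11), beside the same 51.4%, with CYC1, SDHA, ATP5F1B, ATP5MC3 and NDUFA2 at an unadjusted p under 0.05. In both lists the sets disagreed: ribosomal proteins had a median of -0.38 in replicates 1 and 2 and 0.03 in 3 and 4, and oxidative phosphorylation -0.45 in replicates 1 and 2 and 0.09 in 3 and 4. Without F5446 replicate 2, the one F5446 library of replicates 1 and 2, the medians turned to 0.06 and 0.08. Ribosomal protein genes have many processed pseudogenes, and how shared reads were counted is not given in the sources used here.

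Each of the 13 genes of the mitochondrial genome had a higher mean with romidepsin, at a median of 0.46, but none had an unadjusted p under 0.05. They took 9.30 ± 2.97% of counts with romidepsin (n = 4) and 6.71 ± 1.73% with F5446 (n = 3), a difference of 2.58 percentage points (two-sided exact permutation test, p = 0.229; the smallest p that 35 splits allow is 0.0571). Between libraries of the same number the share was 12.4 against 8.49% in replicate 2, 5.48 against 5.03% in replicate 3 and 8.64 against 6.62% in replicate 4, higher with romidepsin in 3 of 3 pairs, by a mean of 2.13 points (two-sided exact permutation test within pairs, p = 0.25, the smallest that 3 pairs allow). These genes share 1 source in each library, so their common direction is not 13 separate observations. The contrast between long and short transcripts had a higher mean with romidepsin, with 0.634 ± 0.025 against 0.589 ± 0.050 log2 units between the mean log2 CPM of long and short genes (exact permutation p = 0.286; within pairs, exact p = 0.5, with replicate 3 in the other direction). Among genes in the class of longest transcripts, 155 were higher and 74 lower at an unadjusted p under 0.05, against 100 and 128 in the middle class and 107 and 94 in the class of shortest ones. These counts do not follow the order of length, and the median of the longest class was 0.07 in replicates 1 and 2 and -0.01 in 3 and 4. The part of the mitochondrial share and of transcript length in the ribosomal and oxidative phosphorylation values was not tested.

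Of 31 tested genes of glycolysis and hypoxia, 23 were lower (median -0.11), beside 51.4% of all genes. Yet the sets disagreed here too, at 0.17 in replicates 1 and 2 and -0.26 in 3 and 4. Without F5446 replicate 4 the median was 0.03. ALDOC, TPI1 and ANKRD37 were lower at an unadjusted p under 0.05, ALDOC at 60.3 against 99.98 CPM (log2 -0.41, with overlap). Ribosome biogenesis genes were higher in 23 of 31 (median 0.05), beside 48.6% of all genes. Among them NOP58, a core protein of box C/D small nucleolar particles, was at 155 against 125 CPM (log2 0.26, with overlap). That list's median was above 0 in all settings run, with 0.01 under the replicate block as the lowest.

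Of 35 tested mitosis genes, 26 were lower (median -0.09, -0.07 in replicates 1 and 2 and -0.04 in 3 and 4), beside 51.4% of all genes. That median was -0.16 without romidepsin replicate 3 and -0.03 without romidepsin replicate 4. CENPE, a kinetochore motor, was higher at 225 against 188 CPM and AURKB, the kinase of the chromosomal passenger complex, lower at 80.6 against 98.6 CPM. DNA replication genes were 15 higher and 22 lower of 37 (median -0.03). E2F1, which drives entry into S phase, was lower without overlap at 22.5, 19.6, 28.6 and 29.5 CPM in romidepsin replicates 1 to 4 and 31.5, 31.9 and 38.0 in F5446 replicates 2 to 4 (log2 -0.41, unadjusted p = 0.00969). p53 targets and cell cycle inhibitors were 8 higher and 14 lower of 22, at a median of -0.08 that was 0.03 in replicates 1 and 2 and -0.12 in 3 and 4, and -0.14 and -0.02 without romidepsin replicate 3 or 4. CCNG1, a p53-induced cyclin, was lower at 136 against 184 CPM (log2 -0.35), opposite in sign to CDKN1A. Apoptosis genes were 9 higher and 20 lower of 29 (median -0.03), with no member at an unadjusted p under 0.05.

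NF-kB subunits and targets were 10 higher and 14 lower of 24 (median -0.03). NFKB2, the subunit of the noncanonical arm, was lower without overlap at 254 against 305 CPM (log2 -0.25, unadjusted p = 0.0203 by edgeR). The inhibitor NFKBIE was lower with overlap, while NFKBIZ was higher at 64.7 against 52.5 CPM. Immediate early genes were 11 higher and 14 lower of 25 (median -0.02, 0.18 in replicates 1 and 2 and -0.19 in 3 and 4), and cholesterol synthesis genes 12 and 12 of 24 (median 0.00, 0.14 in replicates 1 and 2 and -0.02 in 3 and 4). Replication-dependent histone genes were 34 higher and 25 lower of 59 (median 0.01). HIST1H2AJ, HIST1H2AL and HIST1H2BM were higher at an unadjusted p under 0.05, but these genes are near-identical copies whose reads may be split between them.

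**Figure D4:**
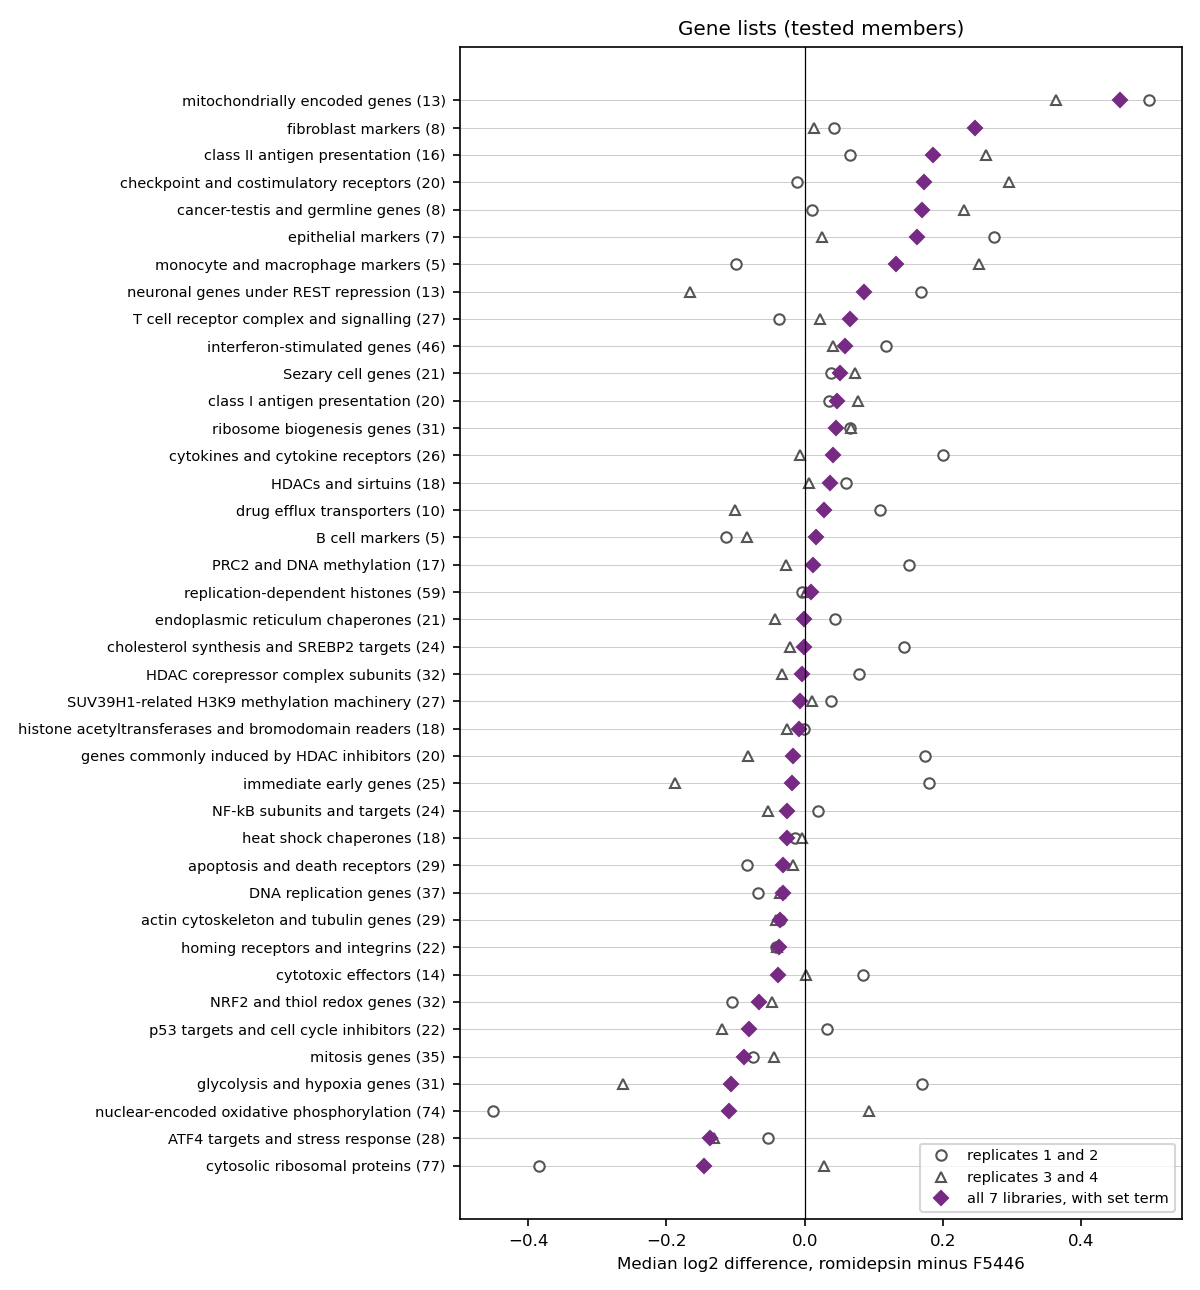
Median log2 difference (romidepsin minus F5446) of the tested members of each gene list with 5 or more tested (number in brackets). Diamonds are from the main fit with the set term, in which all 13 libraries entered. The key names the 7 libraries compared. Circles (replicates 1 and 2) and triangles (3 and 4) are from a fit of all 13 libraries with a separate mean for each group and set. Circles and triangles lie on opposite sides of 0 for ribosomal proteins and oxidative phosphorylation, and most diamonds lie near 0.

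Among cytoskeletal genes PALLD had the smallest p. PALLD, the actin-bundling scaffold palladin, was at 610.0, 586, 542 and 603 CPM in romidepsin replicates 1 to 4 and 425, 452 and 435 in F5446 replicates 2 to 4. Every romidepsin library lay well above every F5446 library, and the log2 difference was 0.40 (95% interval 0.19 to 0.61, adjusted p = 0.428), with 0.49 and 0.37 in the sets; DESeq2 called it. ACTA2, a smooth muscle actin, was lower at 444 against 553 CPM with overlap (log2 -0.32, unadjusted p = 0.0130), as were TAGLN2 and ACTN1. Over the 29 tested actin and tubulin genes, 11 were higher and 18 lower (median -0.04).

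Genes usually silent in T cells mostly had low counts. Of 29 cancer-testis and germline genes, 8 passed the filter on low counts and 16 were at 0 in all 7 libraries. Of 25 neuronal genes under repression by the factor REST, 13 passed (median 0.09, 0.17 in replicates 1 and 2 and -0.17 in 3 and 4), and SNAP25, of synaptic vesicle fusion, was higher without overlap at 10.3, 13.4, 11.5 and 6.22 CPM in romidepsin replicates 1 to 4 and 6.16, 4.95 and 5.05 in F5446 replicates 2 to 4 (log2 0.81, unadjusted p = 0.00928), though F5446 replicate 2 lay just under romidepsin replicate 4. NEFH, a neurofilament, was at 42.7 against 34.7 CPM. DMSO replicate 1 held SNAP25 at 12.8 CPM and DMSO replicate 4 at 3.0, a wider gap than that between the treatments.

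Markers of other cell types were partly present. All 10 erythroid markers failed the filter, and 8 of them were at 0 in all 7 libraries. Of 14 fibroblast markers, 6 were at 0 (COL1A2, COL6A3, DCN, PDGFRA, FAP and POSTN), and the summed level was 288 to 339 CPM with romidepsin and 256 to 401 with F5446. Its highest members were THY1 (80.6 against 104 CPM), COL6A2 (69.6 against 85.8 CPM), COL6A1 (60.7 against 79.1 CPM) and FN1 (58.3 against 42.2 CPM), each with overlap. For FN1 the log2 difference was 0.91 in replicates 1 and 2 and -0.05 in 3 and 4. Natural killer cell markers summed to 6.36 to 10.502 and 7.13 to 10.8 CPM, with NCAM1 and NCR1 at 0, while monocyte and macrophage markers summed to 162 to 235 CPM with romidepsin and 190.3 to 204 with F5446, nearly all of it AIF1 (205 against 192 CPM), with CD68, S100A8 and S100A9 listed at 0. Of 10 B cell markers, 5 were tested, and the list summed to 71.4 to 100.5 CPM with romidepsin and 70.1 to 94.4 with F5446. MS4A1, which encodes CD20, was at 23.7, 33.3, 23.0 and 14.9 CPM in romidepsin replicates 1 to 4 and 15.3, 11.1 and 13.4 in F5446 replicates 2 to 4, with overlap (log2 0.73, 95% interval 0.35 to 1.12, adjusted p = 0.474), while CD22 was at 0 and CD79B was at 4.74 against 6.47 CPM. Of 10 epithelial markers, 7 were tested and KRT19 was at 0. Their sum was 126 to 169 CPM with romidepsin and 122 to 124 with F5446, without overlap. CDH1, the adhesion protein E-cadherin, was at 34.3, 15.4, 14.3 and 15.2 CPM in romidepsin replicates 1 to 4 and 15.4, 11.3 and 8.86 in F5446 replicates 2 to 4, high in romidepsin replicate 1, and KRT8 was higher without overlap at 74.1 against 60.9 CPM. The part of these markers in the other results was not tested.

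Each treatment was also fitted against the DMSO libraries. Both comparisons share the same 2 DMSO libraries, so their agreement or opposition is no result of its own. For CKB the log2 difference from DMSO was 1.15 with romidepsin and 0.30 with F5446, for CAPN6 0.99 with romidepsin and 0.07 with F5446, for ADGRL1 0.98 with romidepsin and 0.06 with F5446 and for PRKCB 0.60 with romidepsin and 0.06 with F5446. In these 4 genes most of the distance lay on the romidepsin side. Other genes had the 2 treatments on opposite sides of DMSO. Among these, PPFIBP1 (0.27 with romidepsin and -0.65 with F5446), HIGD1A (-0.10 with romidepsin and 0.45 with F5446) and AC060766.1 (-0.22 with romidepsin and 0.87 with F5446) had most of the distance on the F5446 side. TNFRSF4 (-0.94 with romidepsin and 0.29 with F5446) had most of it on the romidepsin side. C12orf57 was at -0.30 with romidepsin and 0.41 with F5446. With chaetocin, at the F5446 dose, CKB was at 47.4 to 72.5 CPM, CAPN6 at 21.5 to 46.5, ADGRL1 at 11.5 to 19.8 and TNFRSF4 at 10.9 to 14.7. The CAPN6 and ADGRL1 ranges lay below, and the TNFRSF4 range above, the romidepsin libraries, while for CKB chaetocin replicate 3 reached into the romidepsin range.

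**Figure D5:**
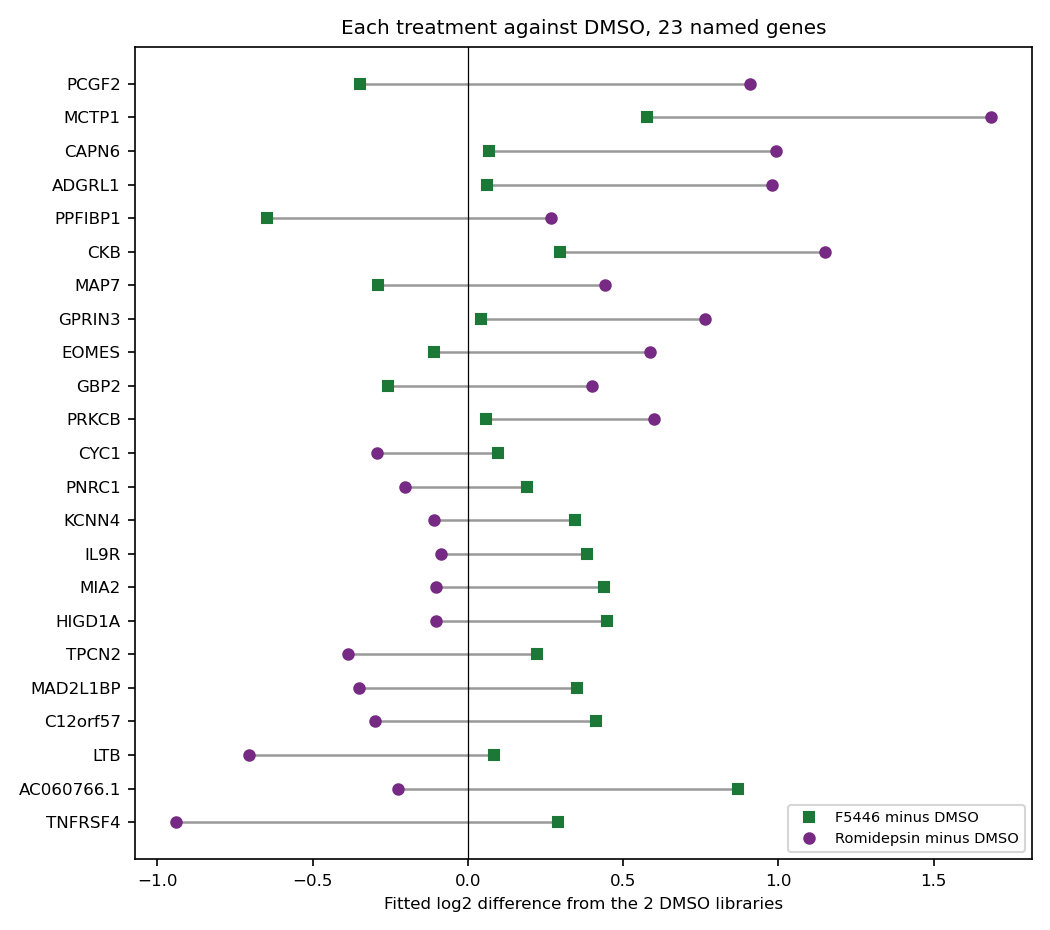
Fitted log2 difference from the 2 DMSO libraries (horizontal axis) with F5446 (squares) and with romidepsin (circles) for genes among the 12 higher and 12 lower of smallest p; the grey line is the difference between the treatments. CKB, CAPN6 and ADGRL1 have the square nearer 0 and the circle to the right, while HIGD1A and AC060766.1 have the circle nearer 0.

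Whether the romidepsin minus F5446 difference itself depended on the set of replicate numbers was tested directly. No gene of 17252 passed adjustment by edgeR (0% called), and 685 (3.97%) had an unadjusted p under 0.05. Replicates 1 and 2 hold 1 F5446 library, so this test leans on F5446 replicate 2, and a miss does not show that the sets are alike.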

How the data were processed

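The authors deposited raw counts, whole numbers per gene for 45744 genes in 13 libraries of total RNA, made with a kit for degraded human RNA per the labels' protocols. Per the submitters' processing notes, the tools were bcl2fastq 2.20.0.422, cutadapt 1.8.1 and HTSeq 0.6.1, on hg19. Which aligner, gene annotation and strand option were used is not given in the sources used here. Overlapping and antisense genes therefore cannot be told apart, which can affect genes listed at 0. From these counts, all libraries were fitted with edgeR 4.0.16 in R 4.3.3 (TMM, edgeR's filter on low counts, robust quasi-likelihood test, two-sided, Benjamini-Hochberg over 17252 genes, threshold 0.05), with group and a term for replicates 1 and 2 against 3 and 4 as the design. A gene is called where its adjusted p was under 0.05. Intervals are at 95% and hold spread between libraries and counting error; p-values measure the spread between these libraries, which may be technical.

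Named genes were the called genes of at least 5 CPM without overlap or, as here with none called, the 12 of smallest p in each direction, 11 fixed genes of the drug targets and response, and in each of 43 lists the higher and lower member of smallest p; counts past an unadjusted p name further members. The comparison, its set term and the lists were chosen with earlier results of these data known. Transcript lengths came from a GENCODE release other than the authors' build for 17081 tested genes, which were ranked into 3 classes of length. Same-numbered libraries of the 2 groups deviated together from their group means (Pearson r of 0.398, 0.390 and 0.271 for replicates 2, 3 and 4, against a highest r with another number of -0.261, 0.226 and 0.216, across 8685 genes of at least 10 CPM, which are not independent). The difference between the sets was not removed before these r were computed. For replicate 2 every other F5446 library lies in replicates 3 and 4, so number cannot be told from set. Pairing by replicate number was therefore an assumption of the replicate block and of the tests within pairs. Alternatives used DESeq2 1.42.0 and limma 3.58.1, other scalings and filters, the replicate block and each library left out. Some genes are not reported here, though counts and list medians include them. A self-test on simulated data preceded the fit. Figures used matplotlib 3.10.9 in Python 3.11.15.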

Additional observations from a re-analysis of the deposited data

Results flagged for a closer look

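In 7 of 104 named genes one of the 4 romidepsin libraries stood far from the other 3 by Dixon's test, whose 95% limit chance passes in about 1 of 20 groups. Romidepsin replicate 1 was the outlying library for SUV39H2 (47.6 CPM), NKG7 (52.1 CPM), ITGAV (8.82 CPM), CHORDC1 (85.5 CPM) and CDH1 (34.3 CPM), replicate 2 for PPFIBP1 (17.8 CPM) and replicate 3 for CASP10 (10.8 CPM). PPFIBP1 and CDH1 are among the genes with a higher romidepsin mean.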

How the results depend on the processing

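The count of called genes was 0 and rose under several alternatives: 2 with the replicate block (CKB, CAPN6), 2 with only the 7 libraries (CAPN6, MIR3687-2), 7 with DESeq2 (among them CKB, CAPN6, ADGRL1, PALLD, TNFRSF4 and LINC02163), 2 with limma-voom and 3 with library quality weights, 2 with scaling by total counts, 18 without a filter on low counts and 2 in replicates 3 and 4 alone (CAPN6, MT2A). Leaving out single libraries gave 0 to 7: 7 without chaetocin replicate 3, which is not part of the contrast and stood apart at 112.7 on the first principal component, and 1 without F5446 replicate 3, chaetocin replicate 1, DMSO replicate 1 or DMSO replicate 4. Where 1 DMSO library remained, it was assumed to vary like the other groups. Counts at an unadjusted p under 0.05 were 663, but 424 without the set term, 1055 with quality weights, 149 against a minimum log2 difference of 0.5, 1134 in replicates 1 and 2 alone and 1039 without romidepsin replicate 3. The block changed no other named gene's call. For the difference between sets, dropping the filter gave 3 called genes. The mitochondrial share differed by 1.55 to 3.86 points with libraries left out, and by 2.13 within pairs, a replicate block chosen after seeing the data. For 104 named genes over 29 settings, 2930 values moved by less than the SD between libraries, 44 by more, and 40 became called; list medians gave 1184 and 33. With no gene called, no called sign could reverse, and 17 of the 104 genes changed sign in at least 1 setting. The cause of these shifts was not tested. Genes under about 5 CPM, such as CDKN1A, rest on fewer counts, and the part of depth in their values was not tested.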
